A study of Homo sapiens with 18 samples.

Results

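The genes described here are 6 CC chemokines, CCL2, CCL3, CCL3L3, CCL4, CCL5 and CCL20, chosen by their symbols from the 62754 genes of the gene count matrix. All 6 passed the filter on low counts (a total of at least 100 counts and at least 1 CPM, the count scaled to the library total, in 1 library) and are among the 15167 genes tested. Levels were measured by RNA sequencing in EA.hy926 cells, a human line made by fusing umbilical vein endothelial cells with the lung carcinoma line A549. The study asked how knockdown of ELMO1, an adaptor of engulfment and cell movement, changes the endothelial response to poly(I:C), a synthetic double-stranded RNA that activates the receptor TLR3. Mock cells received transfection reagent only, siNT cells a non-targeting siRNA at 10 nM, and siELMO1 cells a pool of siRNAs against ELMO1 at 10 nM. The knockdown was transient and made in 1 cell line, and cells of all groups were kept in low serum before stimulation. Cells were lysed for RNA either 48 h after transfection, before stimulation (0 h), or once they had been with 1 µg/ml poly(I:C) for 24 h (24 h), with 3 libraries in each of the 6 conditions and 18 in all.

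CC chemokines are small secreted proteins, named for a pair of adjacent cysteines, that bind G protein-coupled CCR receptors and guide leukocytes along gradients held on glycosaminoglycans of the vessel wall. CCL2 draws monocytes through CCR2. CCL3, CCL4 and CCL5 attract monocytes, T cells and NK cells, CCL3 and CCL5 in part through CCR1, and CCL20 draws CCR6-bearing cells such as Th17 cells and immature dendritic cells. In many cells, double-stranded RNA switches chemokine genes on through TLR3, RIG-I and MDA5, which activate NF-κB and IRF transcription factors.

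In GRCh38 with GENCODE v44, 5 of the 6 genes lie on chromosome 17. CCL2 (ENSG00000108691.10) spans positions 34255274 to 34257208 on the plus strand, and CCL5 (ENSG00000271503.7) positions 35871491 to 35880793 on the minus strand. CCL3 (ENSG00000277632.2) spans 36088256 to 36090169 on the minus strand, with CCL4 (ENSG00000275302.2) at 36103827 to 36105621 on the plus strand, 13.7 kb away. CCL3L3 (ENSG00000276085.1), a near copy of CCL3, lies 105 kb from it at 36194869 to 36196758 on the minus strand. CCL20 (ENSG00000115009.13) is on chromosome 2 from 227805739 to 227817564 on the plus strand.

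The stretches below come from RefSeq promoters in GRCh38, from 250 bases before to 50 bases after a start site, which were given for 3 of the 6 genes (CCL3, CCL3L3 and CCL20). They are shown to set the region just before the start of CCL20 beside those of CCL3 and its near copy, whose levels are compared in what follows. Capitals mark the motif, and each stretch is written 5′ to 3′ on the strand of its gene.
CCL20, κB motif, chr2:227813753-227813782, plus strand: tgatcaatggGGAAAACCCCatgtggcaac
CCL20, TATA box, chr2:227813801-227813830, plus strand: cccaatatttgcTATAAAtagggccatccc
CCL3, TATA box, chr17:36090155-36090184, minus strand: gccagggctgccTATAAAgaggagagctgg
CCL3L3, TATA box, chr17:36196770-36196799, minus strand: gccagggctgccTATAAAgaggagagatgg

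The κB motif, the site bound by NF-κB, was searched on both strands. It had 1 match in the CCL20 window, with its first base 79 bases before the start site, and no match in the windows of CCL3 or CCL3L3. The TATA box, TATAAA, began 29 bases before the start in all 3 genes. For CCL3 this was in the window at the start of CCL3-204. Other CCL3 windows given matched no transcript start and held no TATAAA. Of 35116 promoters of the same length, 11.3% held the κB motif and 11.5% held TATAAA. A pair of IRF half-sites, GAAA repeated after any 2 bases, and an AP-1 site, TGANTCA, held by 3.57% and 7.71% of promoters, had no match in any window of the 3 genes. A match is a description of letters and not a measured binding site. The promoters of CCL3 and CCL3L3 were identical at 94.2% of 294 aligned bases, and their main transcripts at 96.2% of 780 aligned bases. No stretch of 100 bases of the main CCL3 transcript occurred whole in a CCL3L3 transcript. For CCL4, 8.02% of such stretches occurred in its near copy CCL4L2, so a small part of its counts may not have been assigned uniquely. How single reads were assigned was not tested.

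The libraries held 40.4 to 73.9 M estimated counts. The targeted gene ELMO1 measured 3.02 ± 0.0288 CPM in Mock cells before poly(I:C) (mean ± SD, n = 3), against 2.95 ± 0.339 CPM for siNT and 0.340 ± 0.0687 CPM for siELMO1. After poly(I:C) it measured 2.32 ± 0.738, 3.32 ± 0.307 and 0.268 ± 0.104 CPM in the same order. Endothelial markers were present (11 of 12 tested, summed level 1613 to 3436 CPM over the libraries), CLDN5 being near 0. Of 10 T and NK cell markers 6 had no count in any library, and the list summed to 0.857 to 3.16 CPM. Most of it came from TRAC, with means of 0.606 to 1.95 CPM, while KLRD1 had means of at most 0.482 CPM. Monocyte markers summed to 36.5 to 286.6 CPM, nearly all from CD68. LYZ had means of 1.99 to 5.73 CPM and CSF1R of 0.234 to 0.770 CPM. PTPRC, CD14, ITGAM, AIF1, MRC1 and CD163 were each under 0.4 CPM in the mean of every condition, and FCGR3A was at 0. In bulk RNA, fewer cells that express a gene and less RNA per cell cannot be told apart. The study's methods call the 3 libraries of a condition biological replicates, and p-values rest on the spread between such libraries of 1 cell line. The spread of a gene was estimated once over all conditions, not from the libraries compared alone. For CCL3, CCL4 and CCL5 it thus takes in the sparse counts before poly(I:C), also where libraries after poly(I:C) are compared.

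Before poly(I:C), CCL2 was the only member with more than 1 CPM in any library. It was at 15.8, 15.2 and 17.5 CPM in the 3 Mock libraries, 22.8, 25.0 and 22.5 CPM in siNT and 25.3, 30.6 and 28.0 CPM in siELMO1. All 6 libraries that received siRNA were above the highest Mock library, and siELMO1 libraries were above those of siNT. Against Mock, CCL2 was higher by 0.53 on the log2 scale in siNT (SE 0.13, adjusted p = 0.00208, edgeR) and by 0.78 in siELMO1 (SE 0.13, adjusted p = 6.5e-05, edgeR). The difference between siELMO1 and siNT was 0.25 (95% interval −0.02 to 0.52, adjusted p = 0.0946, edgeR), and it passed the threshold when only these 6 libraries were fitted (adjusted p = 0.0249, edgeR).

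CCL20 was at 0.214, 0.352 and 0.179 CPM in the Mock libraries before poly(I:C), at 0.927, 0.855 and 0.823 CPM in siNT and at 0.191, 0.402 and 0.140 CPM in siELMO1. The siNT libraries stood above every other library of that time, at 52 to 62 counts each against 7 to 26 in the others. CCL20 was higher in siNT than in Mock by 1.80 on the log2 scale (SE 0.32, adjusted p = 1.5e-04, edgeR) and lower in siELMO1 than in siNT by 1.92 (log2 fold change −1.92, SE 0.35, adjusted p = 1.3e-04, edgeR). With limma-voom both calls were lost (adjusted p = 0.0582 and 0.0537). Between siELMO1 and Mock the log2 fold change was −0.12 (95% interval −1.05 to 0.80, adjusted p = 0.845, edgeR).

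The other members were close to the limit of detection at 0 h. CCL5 had 0 to 24 counts per library, CCL3 0 to 13 and CCL4 0 to 4, while CCL3L3 had none in any of the 9 libraries. Where no count was found, up to 3 could have been missed. Limits and counting intervals of this kind cover counting error only, as PCR copies were not told apart. For CCL3, CCL4 and CCL5 no difference between transfections was called at 0 h, and the 95% intervals reached beyond 1 log2 unit on both sides in 8 of 9 cases. Without Mock 0 h replicate 2, which held all CCL3 counts of its group, CCL3 was called as higher in siNT than in Mock (log2 fold change 5.91 in place of 1.14, adjusted p = 0.0221, edgeR). For CCL3L3 none could be estimated. Thus 2 of the 6 members were higher in siNT than in Mock (27.6% of all genes tested were higher), 1 was higher in siELMO1 than in Mock (27.9%) and 1 was lower in siELMO1 than in siNT (31.3%).

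**Figure D1:**
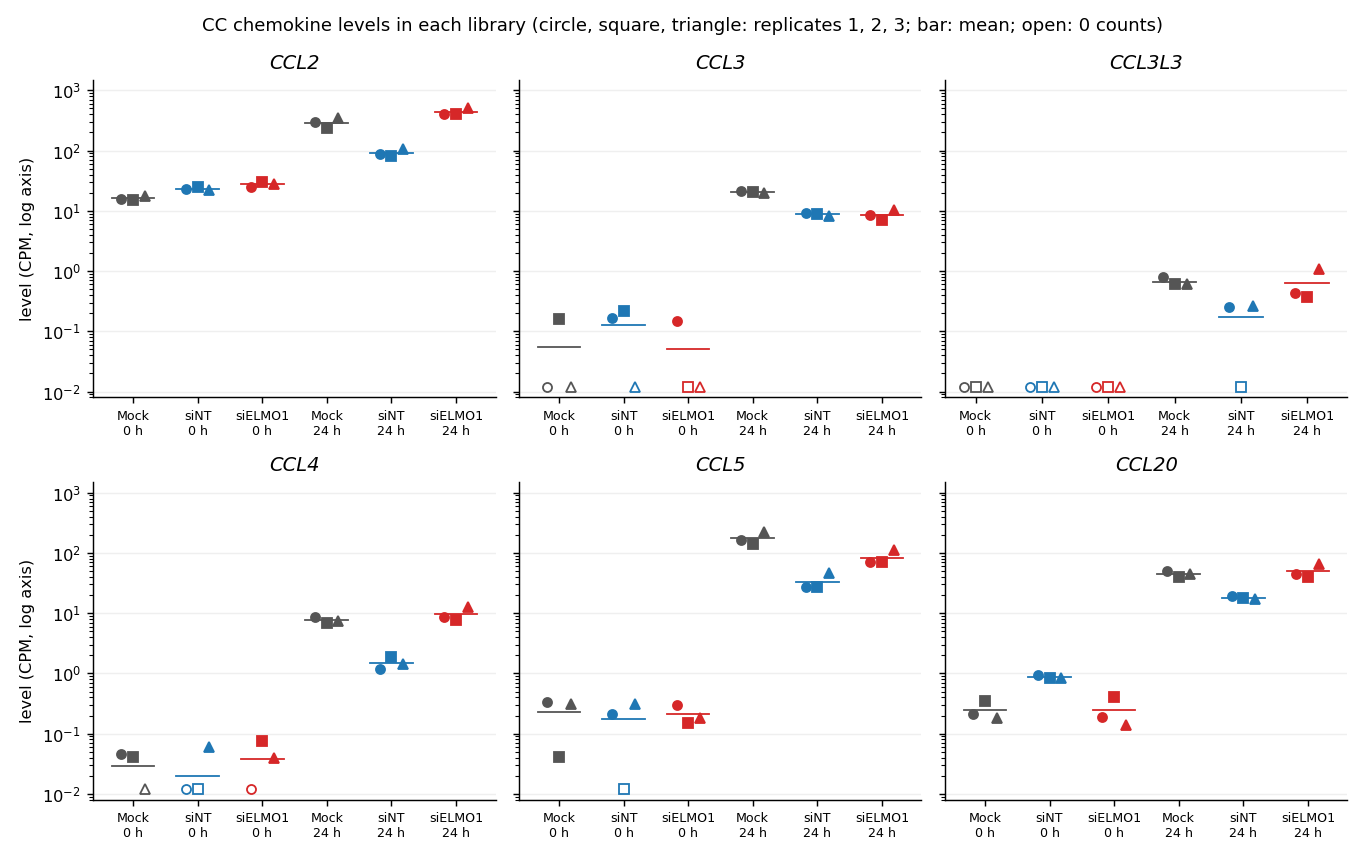
Level of each member in each library (CPM, log axis) by condition, with replicates 1, 2 and 3 as circles, squares and triangles, the mean as a bar and libraries with 0 counts as open marks at the foot. CCL2 was present before stimulation, the others were under 1 CPM, and at 24 h the mean of siNT lay below that of Mock for 6 of 6 members.

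After 24 h with poly(I:C) all 6 members were higher in each transfection, against 30.7% of all genes tested in Mock, 28.6% in siNT and 28.0% in siELMO1. All but CCL2 passed the filter only through libraries of 24 h, so this count is a description. In Mock cells CCL5 went from 22, 3 and 24 counts to 8767, 8508 and 12887 counts, and was at 167, 141 and 220.7 CPM. No library of one time overlapped the other. The ratio of the summed levels was 782 (exact 95% counting interval 591 to 1060), and the log2 fold change was 9.60 (SE 0.42, adjusted p = 1.7e-12, edgeR). This was the largest ratio among the members with counts at 0 h in Mock, although its counting interval overlapped those of CCL3 and CCL4.

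CCL20 reached 50.5, 39.5 and 44.5 CPM in Mock, higher by 7.49 on the log2 scale (SE 0.24, adjusted p = 2.4e-14, edgeR). CCL3 reached 21.7, 20.2 and 20.1 CPM and CCL4 8.70, 6.96 and 7.50 CPM. All of these libraries were far above those of 0 h. For CCL4 the ratio was 278 (counting interval 128 to 760, from 6 counts at 0 h) and for CCL3 374 (214 to 724, from 12 counts). Those 12 CCL3 counts lay in Mock 0 h replicate 2 alone, and without that library the fitted log2 fold change of CCL3 went from 8.50 to 13.27, a value set by the fit's treatment of zeros.

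CCL2 reached 293.4, 241.6 and 342.6 CPM in Mock, higher by 4.17 on the log2 scale (SE 0.14, adjusted p = 2.6e-14, edgeR). Its fold was the smallest of the 6 in Mock, from the highest level at 0 h, 16.2 ± 1.19 CPM. CCL3L3 rose from no counts to 42, 37 and 35 counts (0.800, 0.613 and 0.600 CPM), at least 48.3-fold with 3 counts allowed over the 0 h group.

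The paper reports massive death of siNT cells under poly(I:C), with much less in Mock cells and protection in siELMO1 cells. It proposes this death as the likely reason for the lower inflammatory gene expression in siNT. The part of cell death in the levels given here was not tested. In siNT the same 6 genes rose to lower levels. CCL2 went to 86.4, 82.1 and 105.5 CPM (log2 fold change 1.96, SE 0.13, adjusted p = 6.2e-10, edgeR). CCL20 went to 19.4, 18.2 and 17.0 CPM (log2 fold change 4.39, SE 0.21, adjusted p = 9.1e-12, edgeR) and CCL5 to 26.7, 27.4 and 46.2 CPM (log2 fold change 7.53, SE 0.45, adjusted p = 1.9e-10, edgeR). For these genes every siNT library at 24 h lay above every siNT library at 0 h and below every Mock library at 24 h. CCL3 reached 9.31, 8.74 and 8.07 CPM and CCL4 1.19, 1.89 and 1.45 CPM, ratios of 70.4 (counting interval 47.1 to 110) and 73.8 (28.5 to 273) over 0 h. All CCL4 counts of siNT at 0 h lay in replicate 3, without which the fitted log2 fold change went from 6.07 to 9.51. CCL3L3 had 13, 0 and 15 counts, at least 11.0-fold over 0 h, and 1 of its 3 libraries held none.

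In siELMO1 cells CCL2 reached 402.3, 401.5 and 503.7 CPM (log2 fold change 3.97, SE 0.14, adjusted p = 5.7e-14, edgeR) and CCL20 43.9, 40.5 and 65.0 CPM (7.76, SE 0.26, adjusted p = 3.9e-14, edgeR). CCL5 reached 69.5, 70.2 and 109.9 CPM (8.51, SE 0.44, adjusted p = 2.0e-11, edgeR). CCL3 was at 8.40, 6.95 and 10.2 CPM, CCL4 at 8.54, 7.85 and 12.6 CPM and CCL3L3 at 0.440, 0.373 and 1.10 CPM. The ratios to 0 h were 125 for CCL3 (counting interval 69.5 to 250), 308 for CCL4 (132 to 950) and at least 32.6 for CCL3L3. All 11 CCL3 counts of siELMO1 at 0 h lay in replicate 1, and without it the fitted log2 fold change of CCL3 went from 6.98 to 12.00. Replicate 3 was the highest siELMO1 library at 24 h for 6 of 6 members.

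The makeup of the family's message also differed between the times, given here as a description. On a scale that divides counts by transcript length (TPM), the 6 genes summed to 46.5 to 56.7 TPM per library in Mock, 63.5 to 75.9 in siNT and 76.5 to 92.6 in siELMO1 at 0 h, and CCL2 made up 97.2%, 95.3% and 98.3% of the sum. At 24 h the sums were 1093 to 1553 TPM in Mock, 353 to 460.1 in siNT and 1404 to 1876 in siELMO1. The siNT libraries were below all others of that time, whereas Mock and siELMO1 overlapped. CCL2 then made up 60.1% of the sum in Mock, 63.7% in siNT and 77.7% in siELMO1, and CCL5 24.1%, 15.5% and 9.88%. In Mock the order of the mean levels per length at 24 h was CCL2 (800.7 ± 143.6 TPM), CCL5 (323.3 ± 77.3), CCL20 (121.1 ± 16.8), CCL3 (58.1 ± 3.14), CCL4 (25.9 ± 3.71) and CCL3L3 (1.78 ± 0.388), and no neighbours in that order overlapped. In siNT the order was the same, but CCL5 (49.9, 50.5 and 86.6 TPM) and CCL20 (53.2, 50.4 and 47.9 TPM) overlapped. In siELMO1 CCL4 (26.6 to 43.4 TPM) and CCL3 (20.1 to 29.3 TPM) overlapped, as did CCL5 (131.2 to 209.9 TPM) and CCL20 (111.5 to 182.7 TPM).

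**Figure D2:**
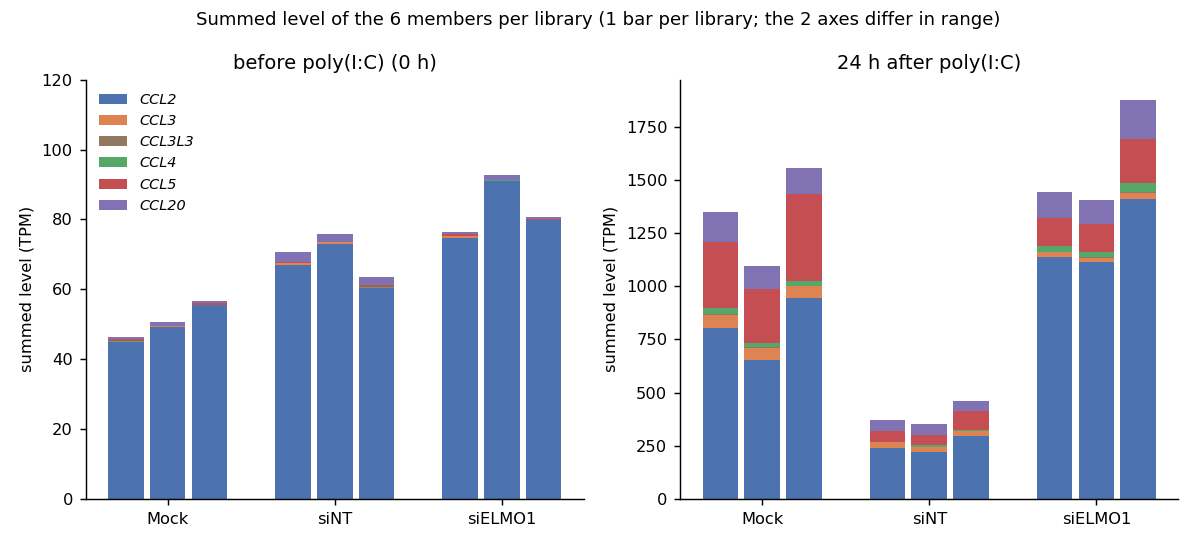
Summed level of the 6 members (TPM), 1 bar per library, at 0 h on the left and 24 h on the right, with colours for the genes. CCL2 made up nearly all of the sum at 0 h, CCL5 and CCL20 became visible at 24 h, and the 3 siNT bars of 353 to 460.1 TPM are lower than the 6 others.

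The transfections were then compared at 24 h. In siNT, 5 of 6 members were lower than in Mock, where 24.9% of all genes tested were lower. CCL5, which attracts T cells and monocytes, fell by 2.40 on the log2 scale (SE 0.26, adjusted p = 6.9e-07, edgeR), and stood at 19.0% of the Mock mean. CCL4 fell by 2.35 (SE 0.36, adjusted p = 3.9e-05, edgeR), to 19.6% of the Mock mean, and CCL2 by 1.68 (SE 0.12, adjusted p = 7.8e-09, edgeR), to 31.2%. CCL20 fell by 1.30 (SE 0.16, adjusted p = 3.0e-06, edgeR), to 40.6%, and CCL3 by 1.25 (SE 0.39, adjusted p = 0.0139, edgeR), to 42.2%. CCL3 was not called by DESeq2 (adjusted p = 0.457), the only alternative in which its call was lost. Its log2 fold change ran from −1.30 to −1.19 over all alternatives. CCL3L3 was at 25.4% of the Mock mean (log2 fold change −1.97, 95% interval −3.77 to −0.16, adjusted p = 0.067, edgeR), and was not called. It was called as lower when the replicate number was fitted as a block (adjusted p = 0.043, edgeR), although no label states a pairing by number. By limma-voom it was also called as lower (adjusted p = 0.00435).

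In siELMO1, 4 of 6 members were higher than in siNT, where 26.0% of all genes tested were higher. CCL4 was higher by 2.67 on the log2 scale (SE 0.37, adjusted p = 1.0e-05, edgeR) and CCL2 by 2.25 (SE 0.12, adjusted p = 1.9e-10, edgeR). CCL20 was higher by 1.45 (SE 0.16, adjusted p = 7.8e-07, edgeR) and CCL5 by 1.31 (SE 0.25, adjusted p = 2.9e-04, edgeR). For these 4 genes the groups did not overlap, and without siELMO1 replicate 3, the highest library, each was still called. CCL5 was not called by DESeq2 (adjusted p = 0.0881).

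CCL3 did not follow its neighbour CCL4 in this comparison. Its 3 siELMO1 libraries overlapped those of siNT, the log2 fold change was −0.03 (95% interval −0.86 to 0.79, adjusted p = 0.956, edgeR), and both groups were near the same share of the Mock mean, 42.2% in siNT and 41.3% in siELMO1. CCL3L3 was higher in each siELMO1 library (24 to 55 counts) than in each siNT library (0 to 15 counts), but the log2 fold change of 1.88 (95% interval 0.07 to 3.69) missed the threshold (adjusted p = 0.0758, edgeR). It was called by limma-voom (adjusted p = 0.00846). CCL3L3 passed the filter on low counts through siELMO1 replicate 3 alone, a library of the group where it was high, so neither value is support for a difference. The summed CCL3 and CCL3L3 counts gave a log2 fold change of 0.04 (adjusted p = 0.935, edgeR).

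Against Mock, siELMO1 cells did not show 1 direction at 24 h. CCL2 was higher by 0.57 on the log2 scale (SE 0.12, adjusted p = 7.1e-04, edgeR), at 149% of the Mock mean, so that 1 of 6 members was higher (21.6% of all genes tested were). CCL3 was lower by 1.28 (log2 fold change −1.28, SE 0.39, adjusted p = 0.0138, edgeR) and CCL5 by 1.08 (log2 fold change −1.08, SE 0.25, adjusted p = 0.00158, edgeR), at 41.3% and 47.2% of the Mock mean, so that 2 of 6 were lower (22.0%). In DESeq2 neither passed (adjusted p = 0.469 and 0.197), and CCL3 was also lost without siELMO1 24 h replicate 2 (adjusted p = 0.0572, edgeR). Over all alternatives the log2 fold change ran from −1.43 to −1.15 for CCL3 and from −1.33 to −0.89 for CCL5. CCL4, at 125% of the Mock mean, and CCL20, at 111%, overlapped with Mock. Their log2 fold changes were 0.32 (95% interval −0.39 to 1.04, adjusted p = 0.468, edgeR) and 0.15 (−0.18 to 0.48, adjusted p = 0.464, edgeR), and that of CCL3L3 was −0.09 (−1.72 to 1.54, adjusted p = 0.938, edgeR).

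**Figure D3:**
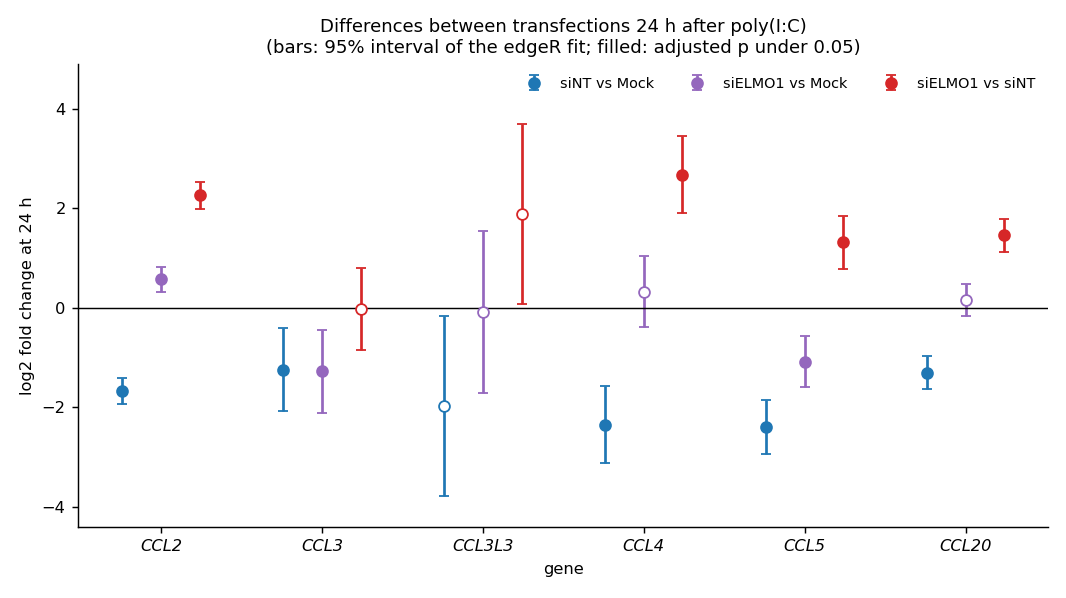
Log2 fold changes of the 6 members between transfections at 24 h, with 95% intervals of the edgeR fit and filled marks for adjusted p under 0.05. Every siNT mark against Mock is below 0, whereas against siNT the siELMO1 marks are above 0 except that of CCL3 at −0.03.

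Ratios between members within a library, which do not depend on the library total, showed the same separation as a description chosen after the values were seen. The ratio of CCL3 to CCL4 per length was 2.06, 2.45 and 2.28 in Mock, 6.91, 4.10 and 4.71 in siNT and 0.854, 0.756 and 0.675 in siELMO1. No group overlapped another, and CCL3 exceeded CCL4 in Mock and siNT but not in siELMO1. The ratio of CCL2 to CCL5 was 2.60, 2.58 and 2.32 in Mock, 4.78, 4.38 and 3.43 in siNT and 8.67, 8.48 and 6.70 in siELMO1, again without overlap. The ratio of CCL20 to CCL2 was 0.128 to 0.172 in Mock, 0.161 to 0.228 in siNT and 0.100 to 0.130 in siELMO1, and here both neighbouring pairs of groups overlapped.

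**Figure D4:**
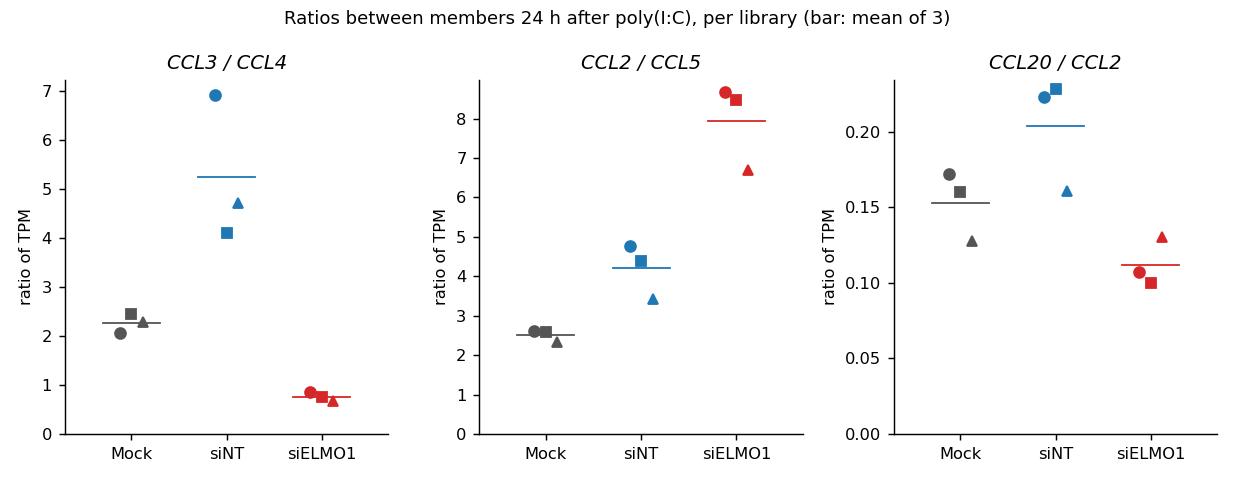
Ratio of the levels per length (TPM) of CCL3 to CCL4, CCL2 to CCL5 and CCL20 to CCL2 in each library at 24 h, with the mean as a bar and each axis from 0. The CCL3 to CCL4 ratio was above 4 in siNT and below 1 in siELMO1, and the groups of the middle plot rise from Mock through siNT to siELMO1 without overlap.

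Whether the response itself differed was tested as an interaction. The response of siNT was smaller than that of Mock by 2.21 log2 units for CCL2 (log2 difference −2.21, SE 0.18, adjusted p = 7.3e-08, edgeR) and by 3.10 for CCL20 (−3.10, SE 0.35, adjusted p = 3.9e-06, edgeR), 2 of the 5 members with a value against 16.0% of all genes tested. The response of siELMO1 was larger than that of siNT by 2.00 for CCL2 (SE 0.18, adjusted p = 9.7e-08, edgeR) and by 3.37 for CCL20 (SE 0.38, adjusted p = 2.1e-06, edgeR), again 2 of 5, against 16.7%. CCL3, CCL4 and CCL5 were not called there, with wide 95% intervals of −1.5 to 3.2, −0.8 to 5.0 and −1.2 to 3.1. For CCL3, CCL4 and CCL5, whose 0 h libraries held 0 to 24 counts, the differences between siNT and Mock were −2.39 (95% interval −4.65 to −0.12), −1.95 (−4.79 to 0.88) and −2.07 (−4.19 to 0.05), and none was called (adjusted p from 0.104 to 0.301, edgeR). CCL3 was called as lower without Mock 0 h replicate 2 (−7.17, adjusted p = 0.00851, edgeR) or without siNT 0 h replicate 3 (−2.98, adjusted p = 0.027, edgeR). For CCL20 both the higher level of siNT at 0 h and its lower level at 24 h entered these differences. Between siELMO1 and Mock none of the 5 was called (adjusted p from 0.413 to 0.945, edgeR, against 28.3% of all genes called in either direction), none at an unadjusted p under 0.05 and none by DESeq2 or limma-voom, with a difference of −0.21 for CCL2 (95% interval −0.57 to 0.16) and of 0.27 for CCL20 (−0.71 to 1.25). The 95% intervals of CCL3, CCL4 and CCL5 between siELMO1 and Mock were wide, at −4.2 to 1.2, −2.5 to 2.8 and −3.1 to 0.9. Without Mock 0 h replicate 2, CCL3 was called there too (−6.31, adjusted p = 0.046, edgeR).

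The share of counts in mitochondrially encoded genes, a sign of RNA quality, was 0.992% to 1.10% in Mock, 1.30% to 1.65% in siNT and 1.27% to 2.99% in siELMO1 at 0 h, where both siRNA groups, like their CCL2, lay above Mock. It was 1.11% to 1.20% in Mock, 1.49% to 1.82% in siNT and 0.885% to 1.18% in siELMO1 at 24 h. At 24 h the siNT libraries were the highest in this share and the lowest for 5 of 6 members, all but CCL3, and its part in the results was not tested. CD68, the one abundant monocyte marker, had means of 247.1 CPM for Mock, 152.6 for siNT and 215.5 for siELMO1 at 24 h, the order of CCL5, and was higher in siELMO1 than in siNT by 0.50 on the log2 scale (SE 0.15, adjusted p = 0.00787, edgeR). LYZ, the other monocyte marker tested, had another order, with means of 2.47, 3.08 and 5.73 CPM. Summed lymphocyte markers, 0.857 to 1.56 CPM in Mock, 1.89 to 1.96 in siNT and 1.73 to 3.16 in siELMO1, did not follow that order, and the markers CD3D, CD3E, CD2 and CD8A were at 0 throughout. Summed endothelial markers were 1613 to 2042 CPM in Mock, 2072 to 2321 in siNT and 2833 to 3436 in siELMO1 at 24 h, and were the highest in siELMO1. Summed lung epithelial markers, of which 5 of 10 were tested and 3 were at 0 throughout, ran from 1519 to 1541 CPM in Mock, 1883 to 1914 in siNT and 2103 to 2227 in siELMO1 at 0 h, the order of CCL2 at that time, and from 844.1 to 862.8, 1012 to 1058 and 1100 to 1316 CPM at 24 h. Nearly all of that sum came from 3 keratin genes, KRT7, KRT18 and KRT8, with means of 754.4, 460.0 and 317.5 CPM in Mock at 0 h. CDH1, SFTPC and NKX2-1 were the genes at 0, and EPCAM had means of at most 1.07 CPM. The part of the marker levels in the results was not tested.

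Among annotated transcripts, 1 carried most counts of CCL2, CCL3, CCL4 and CCL5 at 24 h. CCL3-204 held 92.5% to 96.5% of the CCL3 counts and CCL4-202 88.4% to 96.4% of the CCL4 counts of a condition. For CCL2, the spliced transcript CCL2-201 held 80.0% to 86.1% in all 6 conditions. The share of CCL2-203, annotated as retaining an intron, in Mock, siNT and siELMO1 was 5.41%, 6.73% and 2.50% before poly(I:C) and 14.1%, 11.6% and 15.4% after it, with single libraries ranging from 0.593% to 16.0% at 0 h and from 9.33% to 17.7% at 24 h, so that the times overlapped.

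For CCL5 the main transcript at 24 h was CCL5-201, with 87.0% of counts in Mock, 95.3% in siNT and 88.0% in siELMO1. CCL5-203, which is longer at 1299 against 1217 bases, held the other 13.0% (11.3% to 14.7% by library) in Mock, 4.72% (0.286% to 8.71%) in siNT and 12.0% (11.4% to 13.1%) in siELMO1. The siNT libraries lay below all the others in this share. At 0 h all counts of CCL5, 0 to 24 per library, were assigned to CCL5-203. For CCL20 the counts were split between CCL20-201 and CCL20-202, and single libraries of 1 condition differed widely, with CCL20-202 at 22.1% to 59.1% in Mock at 24 h.

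Of the 20 other CC chemokine genes in the matrix, 8 had no count in any library and only CCL23, a ligand of CCR1, passed the filter. Its means before poly(I:C) were 0.682 CPM in Mock, 1.26 in siNT and 2.33 in siELMO1, and after it 0.774, 1.16 and 5.50 CPM. At 24 h it was higher in siELMO1 than in siNT by 2.25 on the log2 scale (SE 0.45, adjusted p = 4.6e-04, edgeR) and than in Mock by 2.84 (SE 0.47, adjusted p = 8.5e-05, edgeR), and between the times it was called as higher in siELMO1 (1.24, SE 0.43, adjusted p = 0.022, edgeR) and not in Mock or siNT. The response of siELMO1 was not called as different from that of siNT (adjusted p = 0.104, edgeR) or Mock (adjusted p = 0.23, edgeR). CCL4L2, the near copy of CCL4, had at most 26 counts in a library. CCL7 and CCL8, which share receptors with CCL2, had at most 27 and 14.

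Of 14 genes listed as CC chemokine receptors and decoys, 6 had no count and 3 were tested. All 3 rose with poly(I:C) in every transfection, where 30.7% of all genes tested were higher in Mock, 28.6% in siNT and 28.0% in siELMO1. ACKR4, with means of at most 0.208 CPM at 0 h, passed the filter only through libraries of 24 h, so its rise is a description. In Mock, ACKR4, a scavenger of chemokines, rose by 5.97 on the log2 scale (SE 0.40, adjusted p = 4.9e-10, edgeR), CCRL2 by 2.27 (SE 0.10, adjusted p = 2.5e-12, edgeR) and CCR10 by 1.50 (SE 0.30, adjusted p = 2.8e-04, edgeR). CCR2 and CCR6, the main receptors of CCL2 and CCL20, were among those with no count in any library. At 24 h ACKR4 and CCRL2 were lower in siNT than in Mock (log2 fold changes −0.94 and −0.67), and CCRL2 was higher in siELMO1 than in siNT by 0.25 (SE 0.10, adjusted p = 0.0385, edgeR).

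Of 12 genes for trimming of chemokines and their display on surface glycans, 10 were tested. At 24 h, 6 were higher and none lower in siELMO1 than in siNT, where 26.0% of all genes tested were higher. The median log2 fold change was 0.33 against −0.01 over all genes. SDC4, a heparan sulfate proteoglycan of the cell surface, averaged 290.7 CPM in Mock, 132.4 in siNT and 348.6 in siELMO1 at 24 h, the same order of means as CCL2 and CCL4. It was lower in siNT than in Mock by 1.13 (log2 fold change −1.13, SE 0.08, adjusted p = 1.0e-08, edgeR) and higher in siELMO1 than in siNT by 1.40 (SE 0.09, adjusted p = 6.2e-10, edgeR). DPP4, the protease that trims CCL5 among others, rose with poly(I:C) by 0.54 in Mock (SE 0.18, adjusted p = 0.0154, edgeR) and was not called in siNT (−0.22, adjusted p = 0.336, edgeR) or siELMO1 (0.16, adjusted p = 0.486, edgeR). At 24 h it was lower than in Mock in siNT (−0.65, adjusted p = 0.00667, edgeR) and in siELMO1 (−0.47, adjusted p = 0.0465, edgeR).

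A list of 27 genes covered the path from double-stranded RNA to chemokine genes. All 27 were tested, and poly(I:C) raised 22 in Mock, 21 in siNT and 24 in siELMO1, with medians of 1.26, 0.82 and 1.12 on the log2 scale. Of all genes tested, 30.7%, 28.6% and 28.0% were higher in the same order. The largest increases in Mock were those of DHX58 (6.83, SE 0.19), IFIH1, which encodes MDA5 (5.40, SE 0.12), IRF7 (5.00, SE 0.11) and TNFAIP3, an inhibitor of NF-κB (4.81, SE 0.09; adjusted p from 1.1e-17 to 2.8e-15, edgeR). At 24 h, 19 were lower and 2 higher in siNT than in Mock, with a median of −0.48, where 24.9% of all genes tested were lower. Between siELMO1 and siNT, 16 were higher and 1 lower, with a median of 0.25, where 26.0% of all genes tested were higher. RIGI, which encodes RIG-I, was higher by 1.02 (SE 0.11, adjusted p = 7.0e-07, edgeR). Against Mock, siELMO1 was lower for 11 and higher for 3, where 22.0% of all genes tested were lower and 21.6% higher. IKBKE, a kinase of IRF factors, was higher by 0.70 (SE 0.05, adjusted p = 7.9e-09, edgeR). DHX58 was lower by 0.58 (log2 fold change −0.58, SE 0.13, adjusted p = 0.00179, edgeR), NFKB2 by 0.57 (−0.57, SE 0.07, adjusted p = 4.0e-06, edgeR) and RELA by 0.52 (−0.52, SE 0.06, adjusted p = 1.1e-06, edgeR).

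The CXC and CX3C chemokines, mostly attractants of neutrophils and T cells, served for comparison. Of 13, 7 were tested and all 7 rose with poly(I:C) in each transfection. Of all genes tested, 30.7% were higher in Mock, 28.6% in siNT and 28.0% in siELMO1. CXCL1, CXCL10, CXCL11 and CXCL16, with means of at most 0.787 CPM at 0 h, passed the filter only through libraries of 24 h. The count of genes that rose is therefore a description. At 24 h, 6 of the 7 were lower in siNT than in Mock, where 24.9% of all genes tested were lower. CXCL1 was lower by the most, with means of 126.8 CPM in Mock, 7.38 in siNT and 120.1 in siELMO1. Between siELMO1 and siNT, 6 were higher, against 26.0% of all genes tested. CXCL1 was higher by 4.02 (SE 0.20, adjusted p = 7.9e-11, edgeR) and CXCL10 by 1.98 (SE 0.22, adjusted p = 1.3e-05, edgeR). Between siELMO1 and Mock, 3 were lower and none higher, against 22.0% and 21.6% of all genes tested. CXCL3 was lower by 1.01 (log2 fold change −1.01, SE 0.15, adjusted p = 3.3e-05, edgeR) and CXCL8, the interleukin-8 gene, by 0.97 (−0.97, SE 0.10, adjusted p = 6.2e-07, edgeR), as CCL3 and CCL5 were.

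The genes most like each member were taken by Pearson's r of log2(CPM + 0.5) over the 18 libraries, which is a description of libraries that share conditions. CCL5 was followed most closely by CXCL11 (r = 0.997), GBP5 (0.997) and AIM2 (0.997), and CCL3 by SAMD9L (0.994), TRIM22 (0.993) and NFKB2 (0.992). CCL2 was followed by SAMD4A (0.995), LGMN (0.993) and TNFAIP2 (0.992), CCL4 by LINC02605 (0.994), PIK3AP1 (0.991) and PTPN11P3 (0.990), and CCL20 by VEGFC (0.995), NUAK2 (0.995) and DDX60L (0.994). For the sparsely counted CCL3L3 the values were lower, at 0.953 for PLA1A, 0.951 for TRAPPC3L and 0.951 for MFSD14A. The genes nearest CCL3 were, like it, highest in Mock at 24 h, with means in Mock, siNT and siELMO1 of 1341, 643.3 and 752.6 CPM for SAMD9L, 972.2, 631.7 and 721.4 CPM for TRIM22 and 201.3, 143.2 and 135.9 CPM for NFKB2. Those nearest CCL2 were highest in siELMO1, with TNFAIP2 at 311.8, 102.0 and 371.9 CPM. Among the members, r was highest between CCL2 and CCL4 (0.986) and between CCL3 and CCL5 (0.985), and lower between the neighbours CCL3 and CCL4 (0.923).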

How the data were processed

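The members and gene lists were chosen with earlier results of these data known. Per the labels and methods, the authors used STAR for alignment to GRCh38 and StringTie for quantification, and deposited matrices of estimated counts (expected counts) per gene and per transcript, not normalized, as whole numbers. Tool versions, the read length used to turn coverage into counts and the use of strand are not given in the sources used here. A read pair may stand for more than 1 estimated count, so counting intervals are too narrow and lower bounds too high to that extent. The library kit was stranded. CCL3, CCL3L3 and CCL5 overlap annotated antisense genes, which held at most 6 counts in a library.

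Genes with at least 100 counts in total and at least 1 CPM in 1 library were tested, the study's filter. One edgeR 4.0.16 model (R 4.3.3, TMM factors 0.958 to 1.06, quasi-likelihood test, two-sided, biological coefficient of variation 12.2%) was fitted to all 18 libraries, and p-values were adjusted by Benjamini-Hochberg over 15167 genes. A gene is called at an adjusted p under 0.05. Levels are CPM with TMM factors. TPM used GENCODE v44 transcript lengths, with 59 of 252894 transcripts left out for want of a length. On simulated counts for Mock at 24 h against 0 h, with 14199 genes run and 200 changed, the model recovered 98% of genes changed by 1 log2 unit and 100% of those changed by 2. Of its calls 4.81% were false. The changed genes were drawn only from those with mean counts above the 0 h counts of CCL3, CCL4 and CCL5. Recovery at such low counts was not tested. All genes were simulated with the same spread, so recovery for genes that vary more between libraries was not tested either.

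Named besides the members are at most 4 called genes per list and comparison, those with the largest change, genes whose counts are given to show the list's other members, and the 3 tested genes (mean of at least 1 CPM) with the highest correlation to each member. CCL7, CCL8, CCL4L2, CCR2, CCR6, DPP4, CD68, LYZ, TRAC, KRT7, KRT8 and KRT18 were named for their role or after their values were seen. The labels do not state that libraries of the same replicate number are paired. Deviations of same-numbered libraries from their condition means correlated with r over 0.1 in all 3 pairs only between Mock and siNT at 24 h (0.163, 0.228 and 0.145 over 11033 genes), so for this comparison the call is also given from a fit that has a term for the number, the replicate block, if the calls differ. Alternatives were DESeq2 1.42.0, limma-voom (limma 3.58.1), other scalings and filters, the block, only the libraries compared, mitochondrial genes left out, near copies summed and each library left out.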

Additional observations from a re-analysis of the deposited data

Results flagged for a closer look

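The response of CCL2 and CCL20 to poly(I:C) differed between transfections by the interaction test of edgeR. Against Mock, the siNT response was −2.21 log2 units for CCL2 and −3.10 for CCL20. Against siNT, the siELMO1 response was 2.00 log2 units for CCL2 and 3.37 for CCL20. The 2 pairs of differences share the siNT libraries, and the part of cell death in siNT was not tested. All 4 values are past the threshold, and each kept its call in every alternative run. Conditions of 3 libraries were not searched for single outlying libraries.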

How the results depend on the processing

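Each of 66 member values was recomputed under the alternatives, 1821 values in all. Of these 1764 kept their direction and their side of the threshold, 10 gained and 7 lost a call, and 40 changed sign, all of them values that were not called; 37 of the 66 were stable throughout. By DESeq2, 1 member in place of 3 differed between siELMO1 and Mock at 24 h. At 0 h, 1 member in place of 2 differed between siNT and Mock by limma-voom and with only the libraries compared, where CCL20 did not pass the filter. Between siELMO1 and siNT at 0 h, 0 members were called by limma-voom and 2 with the replicate block, and 1 in the reported fit. The number called between the responses of siELMO1 and Mock ran from 0 to 1 with 1 library left out. The block also called CCL5 between the responses of siNT and Mock (adjusted p = 0.0203), where the numbers do not pair the libraries; beside those named here and in the results it changed no other call. Mean ELMO1 in Mock at 0 h was 3.20 CPM with library totals without factors. The cause of these shifts was not tested, apart from the filter.

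Signs changed in these uncalled log2 values with 1 library left out. At 0 h between siNT and Mock the range was −3.85 to 0.16 for CCL4 and −1.03 to 0.21 for CCL5. Between siELMO1 and Mock it was −4.78 to 5.02 for CCL3 (and −0.0397 by DESeq2), −0.69 to 0.96 for CCL4, −0.53 to 0.32 for CCL5 (and 0.38 by limma-voom, 0.0267 with the block) and −0.54 to 0.19 for CCL20. Between siELMO1 and siNT it was −0.29 to 4.01 for CCL4 and −0.21 to 1.03 for CCL5. At 24 h it was −0.16 to 0.19 for CCL3L3 and −0.0883 to 0.28 for CCL20 between siELMO1 and Mock, and −0.18 to 0.10 for CCL3 between siELMO1 and siNT (0.0447 with near copies summed). For differences between responses it was −2.51 to 1.50 for CCL4 in siNT against Mock, −6.31 to 3.50 for CCL3, −0.64 to 1.02 for CCL4 and −0.0488 to 0.69 for CCL20 in siELMO1 against Mock, and −1.33 to 2.97 for CCL4 in siELMO1 against siNT, where CCL5 was at −0.0406 by limma-voom. Depth limits what can be said of CCL3, CCL3L3, CCL4 and CCL5 at 0 h.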
